A study of Mus musculus with 11 samples.

Results

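The genes described here act at the last steps of triglyceride synthesis, on the coat of lipid droplets and in the release of fatty acids from them. They were taken by name as a set of 10 (*Dgat1*, *Dgat2*, *Lpin1*, *Lpin2*, *Agpat3*, *Plin2*, *Plin3*, *Pnpla2*, *Abhd5* and *Lipe*) from the 24421 genes of a table of read counts. All 10 were expressed above the filter of 1 CPM (counts scaled to library size) in at least 4 pools. The counts came from RNA-seq of conventional type 1 dendritic cells (cDC1s), the dendritic cells that excel at presenting antigen to CD8+ T cells, isolated by cell sorting from melanomas grown from the mouse line B16. There were 11 pools, each from 2 to 4 mice. The 4 control pools had no Cre: replicates 1 to 3 were XBP1 fl/fl and replicate 4 was XBP1 fl/fl and IRE1 fl/fl. The 4 XBP1ΔDC pools carried XBP1 fl/fl with CD11c-CRE, and the 3 XBP1ΔDCIRE1truncDC pools carried XBP1 fl/fl and IRE1 fl/fl with CD11c-CRE. All groups thus shared the floxed *Xbp1* alleles and the tumor. The *Itgax* (CD11c) promoter drives Cre in CD11c-expressing cells at large, so other dendritic cells and macrophages of these mice could also be recombined. The animals had a C57BL/6 background and were of both sexes. A pool mixes several animals, and single animals cannot be followed.

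Triglycerides are built on a glycerol backbone in the endoplasmic reticulum (ER). Acyltransferases of the AGPAT family form phosphatidic acid, lipins remove its phosphate to give diacylglycerol, and DGAT1 and DGAT2 add the last acyl chain. The product is stored in droplets coated by perilipins, of which PLIN2 and PLIN3 are found in many cell types while PLIN1 is typical of adipocytes. ATGL, the product of *Pnpla2*, starts triglyceride breakdown with ABHD5 (CGI-58) as its activator, and hormone-sensitive lipase, the product of *Lipe*, acts mainly on diacylglycerol. IRE1 is an ER stress sensor whose RNase splices *Xbp1* mRNA to make the transcription factor XBP1s and can also cut other mRNAs, a process called RIDD. XBP1s is known to drive lipid synthesis genes in liver and lipid accumulation in tumor dendritic cells of other models. The comparison asks whether genes of triglyceride storage differ in tumor cDC1s that lack XBP1s, alone or together with the IRE1 RNase.

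The pools held 21089065 to 26843486 counts. The 11 cDC1 markers were all expressed, with a summed level of 13110 to 14380 CPM in controls, 11010 to 12370 in XBP1ΔDC and 12020 to 12840 in XBP1ΔDCIRE1truncDC pools. Of these markers, *Naaa* had an adjusted p under 0.05 in both lines, with log2 fold changes of -0.51 (edgeR, Benjamini-Hochberg adjusted p = 0.000495) and -0.33 (edgeR, adjusted p = 0.0396). By contrast, the 5 adipocyte markers stayed below 1 CPM in every pool (summed level at most 0.296 CPM, with 3 of the 5 at 0 throughout). *Xbp1* was at 244 to 271 CPM in controls, 130 to 165 in XBP1ΔDC and 179 to 236 in XBP1ΔDCIRE1truncDC pools. Its log2 fold change against control was -0.74 ± 0.0973 (SE) in XBP1ΔDC (edgeR, Benjamini-Hochberg adjusted p = 0.00167) and -0.28 ± 0.105 in XBP1ΔDCIRE1truncDC (edgeR, adjusted p = 0.324). Recombination removes part of the transcript only, so a count over the whole gene shows the loss incompletely. *Ern1*, which encodes IRE1, was at 9.82 to 19.0 CPM in controls and 17.0 to 26.0 in XBP1ΔDCIRE1truncDC pools, and gene counts cannot show the truncation. *Itgax* had a log2 fold change of -0.18 in XBP1ΔDC and -0.12 in XBP1ΔDCIRE1truncDC.

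Of the 10 genes, *Plin2*, the droplet coat protein, had the highest length-scaled level in control cDC1s. Normalized CPM was divided by the length of each gene's merged exons to compare levels between genes, and *Plin2* was at 56.1 ± 5.07 CPM per kb (SD, n = 4). The lipase gene *Pnpla2* (33.7 ± 3.91) and the acyltransferase gene *Agpat3* (32.2 ± 0.869) came next and overlapped each other between pools. *Plin3*, the second coat protein, was at 23.4 ± 1.42 and *Lipe* at 13.2 ± 0.387 CPM per kb, each apart from its neighbors in every control pool. *Dgat1* (6.32 ± 2.00), *Lpin1* (6.15 ± 0.368) and *Abhd5* (5.60 ± 1.01) came after these, and neighbors in the order overlapped. *Lpin2* (2.65 ± 0.607) and *Dgat2* (2.50 ± 1.09) were lowest and also overlapped. The coat genes and the lipase genes *Pnpla2* and *Lipe* thus stood above both DGAT genes in length-scaled level, whereas the activator gene *Abhd5* did not. *Plin2* alone made up 30.9% of the summed level of the 10 in controls. The exon lengths of *Abhd5* and *Lipe* include bases shared with an antisense gene, so their places in the order are less certain.

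**Figure D1:**
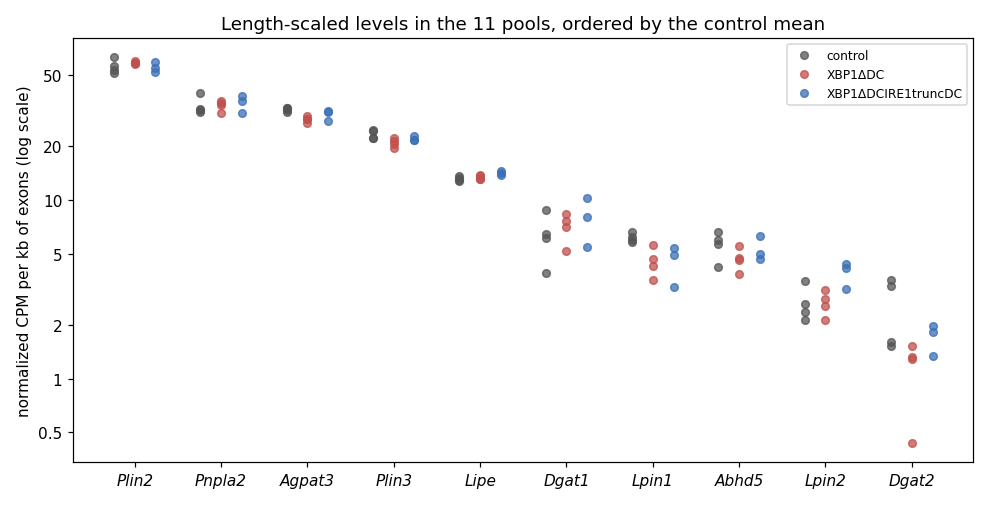
Normalized CPM per kb of exons (log axis) of the 10 genes in each of the 11 pools, 1 point a pool, colored by genotype and ordered by the mean of the 4 control pools. The order from Plin2 (control mean 56.1) to Dgat2 (2.50) spans most of the axis, whereas the genotypes lie close together for most genes.

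Some relatives of these genes were not detected. *Plin1* and *Plin5*, coat proteins of adipocytes and of oxidative tissues, and *Cidec*, an adipocyte droplet protein, had 0 counts in every pool. The same held for *Lpin3*, for *Mogat1* and *Mogat2*, which make diacylglycerol from monoacylglycerol, and for *Pnpla3*, a relative of *Pnpla2*. A count of 0 allows a level of up to 0.111 to 0.140 CPM, depending on the pool (3 counts, counting error only).

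The genes differed in how tightly they were held between pools of a genotype. *Lipe* varied least, with a standard deviation of 0.041 on the log2 scale within groups, and 0.128% of all genes tested varied as little or less. Its counting error alone is about 0.033. *Agpat3* (0.068), *Plin3* (0.076) and *Plin2* (0.092) were also among the steadiest 7.45% of genes. At the other end, *Dgat1* had a within-group standard deviation of 0.41 and *Dgat2* of 0.65, both above the median of 0.22 over all genes. *Dgat2* had 35 to 298 counts per pool and a counting error of about 0.14, so its spread between pools exceeded counting error.

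With XBP1 lost alone, none of the 10 genes was called, and 4 of them had an unadjusted p under 0.05, all with a lower level in XBP1ΔDC: *Dgat2*, *Agpat3*, *Lpin1* and *Plin3*. A call as a differentially expressed gene (DEG) required more than a 1.5-fold difference and an adjusted p under 0.05 in edgeR's quasi-likelihood test over 10951 genes, and 0.493% of all genes were DEGs in this comparison. At an unadjusted p under 0.05 the share of all genes was 7.62%, and genes with a lower level made up 4.95%. The median log2 fold change was -0.08 over the 10 genes and 0.0050 over all genes. The groups did not overlap for *Lpin1* and *Agpat3* (2 of 10 genes, against 5.31% of all genes in either direction). In bulk RNA, fewer cells of a type and less RNA per cell cannot be told apart.

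*Dgat2*, 1 of the genes for the final acylation, had the largest difference. Control replicates 1 to 4 were at 10.1, 11.03, 4.69 and 4.95 CPM, and XBP1ΔDC replicates 1 to 4 at 4.08, 4.71, 1.34 and 3.96 CPM. Control replicates 1 and 2 were high, while control replicates 3 and 4 lay next to the XBP1ΔDC pools, and XBP1ΔDC replicate 2 overlapped control replicate 3. XBP1ΔDC replicate 3 was the lowest pool of all. The log2 fold change was -1.13 with a 95% interval of -1.98 to -0.28, and it did not pass adjustment (edgeR, unadjusted p = 0.0130, Benjamini-Hochberg adjusted p = 0.416). With control replicates 1 and 2 left out together, a choice made after seeing these values, it was -0.46 (edgeR, unadjusted p = 0.319).

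Markers of melanoma cells moved with this split among controls. The summed level of 7 B16 melanoma markers, led by *Dct*, *Pmel* and *Tyrp1*, was 11.3 and 8.22 CPM in control replicates 1 and 2 and 54.1 and 59.7 CPM in control replicates 3 and 4. In XBP1ΔDC pools it was 12.1, 11.2, 27.9 and 64.3 CPM. The XBP1ΔDC pools with the lower sums, replicates 1 and 2, had *Dgat2* at 4.08 and 4.71 CPM. Replicates 3 and 4, with the higher sums, had it at 1.34 and 3.96 CPM. With the log2 of this sum as a covariate, added after seeing the data, the log2 fold change of *Dgat2* was -1.06 (edgeR, unadjusted p = 0.00980).

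*Dgat2* lies at chr7:99153658-99182719 on the minus strand (GRCm38, GENCODE vM21). It is on a published list of RIDD targets used by the study, and the core of the known IRE1 cleavage sequence is CTGCAG. The 2 places in the coding sequence of its longest coding transcript that hold these letters are shown because they are where a cut would be looked for, with CTGCAG in capitals in a window of 30 bases:

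Dgat2 coding position 202: gtggaaaaacagCTGCAGgtcatctcagta

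Dgat2 coding position 258: gctaggagtggcCTGCAGtgtcatcctcat

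Positions count the first C of CTGCAG from the A of the start codon. The density was 1.72 per kb of coding sequence in *Dgat2*, against a median of 0.846 over 21951 coding genes, of which 65.7% hold the letters at least once. *Plin3* held 5 (3.81 per kb), *Lpin1* and *Lipe* 3 each, and *Dgat1*, *Lpin2*, *Plin2* and *Pnpla2* 1 each, whereas *Abhd5* and *Agpat3* held 0. A stem-loop is also needed for cleavage and was not examined, and gene counts do not show cleavage.

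*Dgat1*, which encodes the other DGAT enzyme, went the other way in value. Control pools were at 19.6, 18.8, 26.9 and 11.96 CPM and XBP1ΔDC pools at 25.6, 21.5, 15.8 and 23.2 CPM. The groups overlapped over most of their range, and the lowest control was replicate 4, the XBP1 fl/fl and IRE1 fl/fl pool. The log2 fold change was 0.15 with a 95% interval of -0.38 to 0.69.

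*Lpin1* and *Lpin2* encode phosphatidic acid phosphatases, and lipin 1 also acts as a transcriptional coactivator. *Lpin1* was at 64.0, 60.3, 57.5 and 55.9 CPM in controls and at 34.6, 45.4, 41.4 and 54.1 CPM in XBP1ΔDC pools. Every XBP1ΔDC pool was below every control pool, replicate 4 by a small margin. The log2 fold change was -0.44 with a 95% interval of -0.78 to -0.09 (edgeR, unadjusted p = 0.0173, Benjamini-Hochberg adjusted p = 0.465). *Lpin2* was at 28.9, 25.9, 42.9 and 32.2 CPM in controls and at 38.2, 26.2, 31.1 and 34.2 CPM in XBP1ΔDC, with a log2 fold change of -0.0013 and a 95% interval of -0.37 to 0.37. The groups lay on top of each other for this gene.

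*Agpat3* encodes an acyltransferase that acts upstream of the lipins. It was at 242, 256, 249 and 256 CPM in controls and at 209, 221, 220 and 231 CPM in XBP1ΔDC pools. The difference was small but no pools overlapped, and its log2 fold change was -0.19 with a 95% interval of -0.33 to -0.04 (edgeR, unadjusted p = 0.0149, Benjamini-Hochberg adjusted p = 0.437). The interval of *Agpat3* stays within a 1.5-fold change.

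Of the coat genes, *Plin3* was slightly lower in value and *Plin2* was not. *Plin3* was at 93.9, 92.4, 84.1 and 83.7 CPM in controls and at 80.6, 84.5, 77.6 and 74.0 CPM in XBP1ΔDC. Only XBP1ΔDC replicate 2 reached the control range, and the log2 fold change was -0.16 with a 95% interval of -0.32 to -0.0020 (edgeR, unadjusted p = 0.0476, Benjamini-Hochberg adjusted p = 0.646). The unadjusted p of *Plin3* stayed under 0.05 in 7 of 22 other settings, and with control replicates 1 and 2 left out its log2 fold change was -0.083 (edgeR, unadjusted p = 0.374). *Plin2* was at 182, 187, 198 and 222 CPM in controls and at 212, 204, 206 and 204 CPM in XBP1ΔDC. These 4 pools lay inside the control range, and the log2 fold change of 0.07 had a 95% interval of -0.10 to 0.23, within a 1.5-fold change in either direction.

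The lipase genes showed no difference past the spread between pools. *Pnpla2* was at 119, 95.9, 94.3 and 97.3 CPM in controls and at 108, 92.2, 103 and 106 CPM in XBP1ΔDC (log2 fold change 0.0080, 95% interval -0.20 to 0.22). *Lipe* was at 80.5, 78.0, 76.1 and 75.3 CPM in controls and at 81.5, 77.5, 80.2 and 76.8 CPM in XBP1ΔDC (0.03, -0.11 to 0.17). *Abhd5*, the ATGL activator, was at 39.4, 35.4, 33.6 and 25.1 CPM in controls and at 23.0, 28.1, 27.5 and 32.7 CPM in XBP1ΔDC. Its groups overlapped through control replicate 4, and its log2 fold change of -0.26 had a 95% interval of -0.60 to 0.07. Both *Abhd5* and *Lipe* share part of their exonic bases with an antisense gene (950 of 5956 with A730085K08Rik and 918 of 5886 with 4732471J01Rik). As the strand setting of the counting is not stated, reads in these shared bases cannot be assigned to either partner.

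**Figure D2:**
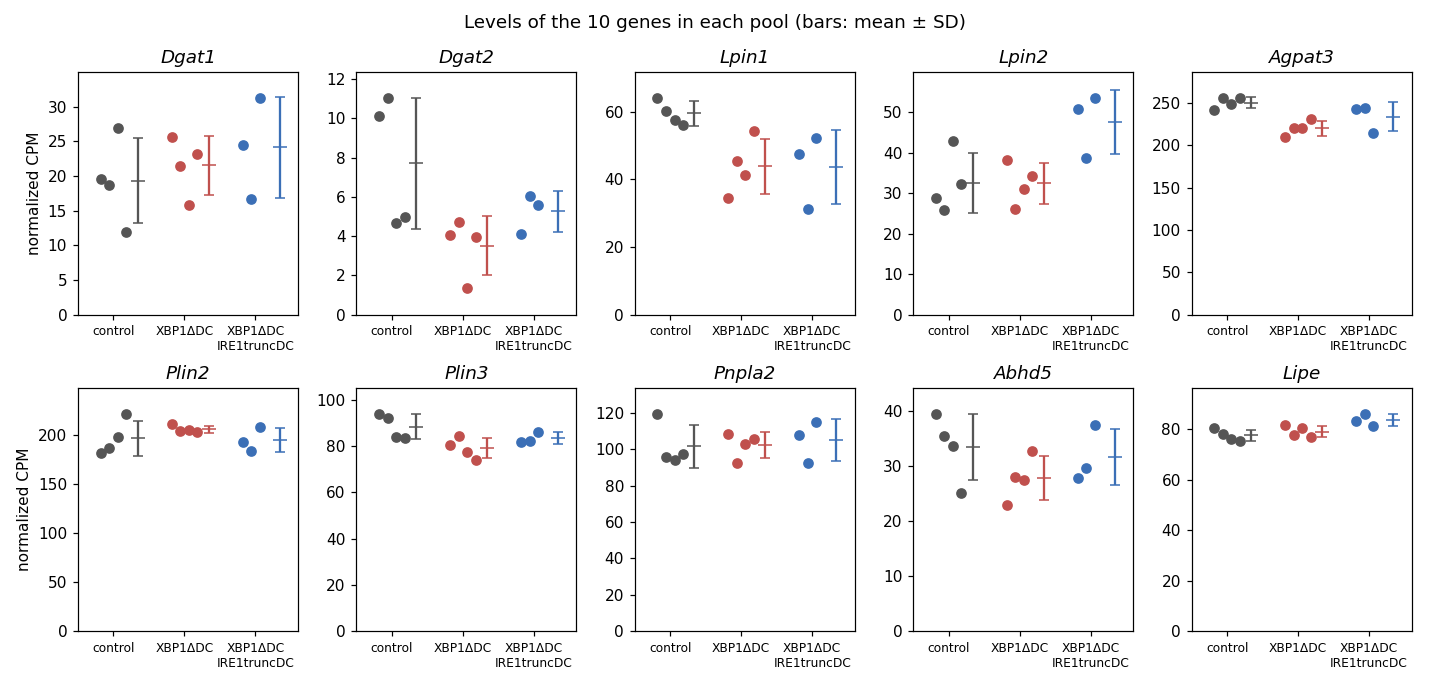
Normalized CPM of each of the 10 genes (y axes start at 0) by genotype, 1 point a pool in the order of replicate numbers, with the mean and SD beside the points. Lpin1 lies below all control pools in both lines, and Dgat2 is split among controls into 10.1 and 11.03 against 4.69 and 4.95 CPM.

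Promoters were examined for motifs bound by XBP1s and by other regulators. RefSeq windows (GRCm38.p6, 250 bases before to 50 after the start) were given for 8 of the 10 genes, in 11 entries, with none for *Dgat1* and *Dgat2*. The unfolded protein response element TGACGTGG was in 0 of the 11 entries and in 0.676% of all 32817 promoter windows. The shorter core CCACG, part of the ER stress element, was in 8 of the 11 entries (of *Plin2*, *Lipe*, *Agpat3*, *Lpin1*, *Plin3* and *Lpin2*) and in 32.8% of all windows, and the E-box CACGTG in 3 of the 11 entries (*Plin2*, *Lipe* and *Lpin2*) and 7.15% of all windows. The sterol regulatory element TCACNCCAC was in 0 of the 11 entries (1.24% of all windows), and the nuclear receptor half-site AGGTCA in 3 (of *Plin2*, *Abhd5* and *Lpin1*, 16.3% of all windows). Both strands were searched, and CCACG and CACGTG can share bases. The 250 bases before the start are shown for the genes with an unadjusted p under 0.05 in XBP1ΔDC that have an entry, with CCACG (either strand) in capitals, because these are where XBP1s binding would be looked for:

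Lpin1 promoter, chr12:16610967-16611216, minus strand: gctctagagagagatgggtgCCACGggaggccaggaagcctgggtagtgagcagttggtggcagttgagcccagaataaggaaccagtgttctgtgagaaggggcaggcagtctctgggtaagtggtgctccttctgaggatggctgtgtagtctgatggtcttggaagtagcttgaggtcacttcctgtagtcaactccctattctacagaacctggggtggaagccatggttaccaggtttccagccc

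Agpat3 promoter, chr10:78351701-78351950, minus strand: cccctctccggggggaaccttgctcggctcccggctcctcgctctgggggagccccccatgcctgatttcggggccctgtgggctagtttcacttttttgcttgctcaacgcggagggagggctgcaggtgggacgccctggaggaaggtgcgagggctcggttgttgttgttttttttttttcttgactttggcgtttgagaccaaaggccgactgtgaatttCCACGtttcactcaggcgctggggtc

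Plin3 promoter, chr17:56290512-56290761, minus strand: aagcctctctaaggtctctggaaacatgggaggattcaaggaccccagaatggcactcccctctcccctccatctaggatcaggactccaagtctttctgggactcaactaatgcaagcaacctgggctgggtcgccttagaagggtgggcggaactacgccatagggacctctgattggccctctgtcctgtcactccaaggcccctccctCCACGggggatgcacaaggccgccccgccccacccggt

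Each of the windows held 1 such match before the start. A match is a run of letters and was not tested for binding, and *Plin2* and *Lipe*, which had the motif too, had log2 fold changes of 0.07 and 0.03 in XBP1ΔDC.

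With both XBP1 and the IRE1 RNase lost, again none of the 10 genes was called, and 2 had an unadjusted p under 0.05, *Lpin1* with a lower and *Lpin2* with a higher level. In this comparison 0.21% of all genes were DEGs and 11.2% had an unadjusted p under 0.05. The median log2 fold change was -0.05 over the 10 genes and -0.0031 over all genes. The groups did not overlap for *Lpin1* and *Lipe* (2 of 10 genes, against 10.1% of all genes). This comparison shares its control pools with the one above.

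*Lpin1* was at 47.5, 31.4 and 52.3 CPM in XBP1ΔDCIRE1truncDC replicates 1 to 3, each below the lowest control of 55.9. Replicate 2 was the lowest of the 11 pools. The log2 fold change was -0.44 with a 95% interval of -0.82 to -0.07 (edgeR, unadjusted p = 0.0249, Benjamini-Hochberg adjusted p = 0.351), and without replicate 2 it was -0.25 (edgeR, unadjusted p = 0.123). Against XBP1ΔDC, *Lpin1* differed by -0.0050 (95% interval -0.38 to 0.37).

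*Lpin2* was at 50.8, 38.6 and 53.5 CPM in XBP1ΔDCIRE1truncDC, above every XBP1ΔDC pool. Replicate 2 lay below control replicate 3 at 42.9 and above the other controls, and replicates 1 and 3 lay above all controls. Its log2 fold change was 0.55 against control (95% interval 0.16 to 0.95, edgeR, unadjusted p = 0.00962, Benjamini-Hochberg adjusted p = 0.274) and 0.56 against XBP1ΔDC (0.16 to 0.95, edgeR, unadjusted p = 0.00949, adjusted p = 0.649). *Lpin2* was the only 1 of the 10 genes with an unadjusted p under 0.05 between the lines, where 0.0731% of all genes were DEGs, 5.29% had an unadjusted p under 0.05 and 6.07% did not overlap. With control replicates 1 and 2 left out its log2 fold change against control was 0.34 (edgeR, unadjusted p = 0.117).

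*Dgat2* was at 4.10, 6.06 and 5.61 CPM in XBP1ΔDCIRE1truncDC, between the high and the low controls. The log2 fold change was -0.55 against control (95% interval -1.46 to 0.36) and 0.58 against XBP1ΔDC (-0.33 to 1.49), so the lines could not be distinguished at this spread. The melanoma marker sum was 8.76, 8.76 and 6.30 CPM in these pools. Without control replicates 1 and 2 the sign against control changed, to 0.12 (edgeR, unadjusted p = 0.795). With the melanoma marker sum as a covariate, the log2 fold change was -0.95 (edgeR, unadjusted p = 0.0407). The sums of this line lay near or below the low end of the controls (8.22 to 59.7 CPM), so covariate and genotype can only partly be told apart. Thus the *Dgat2* value in this line depends on which controls it is set against.

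*Dgat1* was at 24.5, 16.7 and 31.2 CPM, with a log2 fold change of 0.32 against control (95% interval -0.25 to 0.89). *Agpat3* was at 243, 244 and 215 CPM, where replicates 1 and 2 lay in the control range and replicate 3 among the XBP1ΔDC pools (-0.10, -0.25 to 0.06). *Plin2* was at 193, 184 and 209 CPM (-0.01, -0.19 to 0.16) and *Plin3* at 82.0, 82.2 and 86.4 CPM (-0.08, -0.26 to 0.09). The coat genes thus differed from control by less than 1.5-fold over their whole intervals.

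The lipase genes were close to control in this line too. *Pnpla2* was at 108, 92.5 and 115 CPM (log2 fold change 0.05, 95% interval -0.18 to 0.28) and *Abhd5* at 27.8, 29.6 and 37.5 CPM (-0.08, -0.44 to 0.29). *Lipe* was at 83.2, 85.9 and 81.2 CPM, above all controls by a small margin, with a log2 fold change of 0.11 (95% interval -0.04 to 0.26, edgeR, unadjusted p = 0.149).

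**Figure D3:**
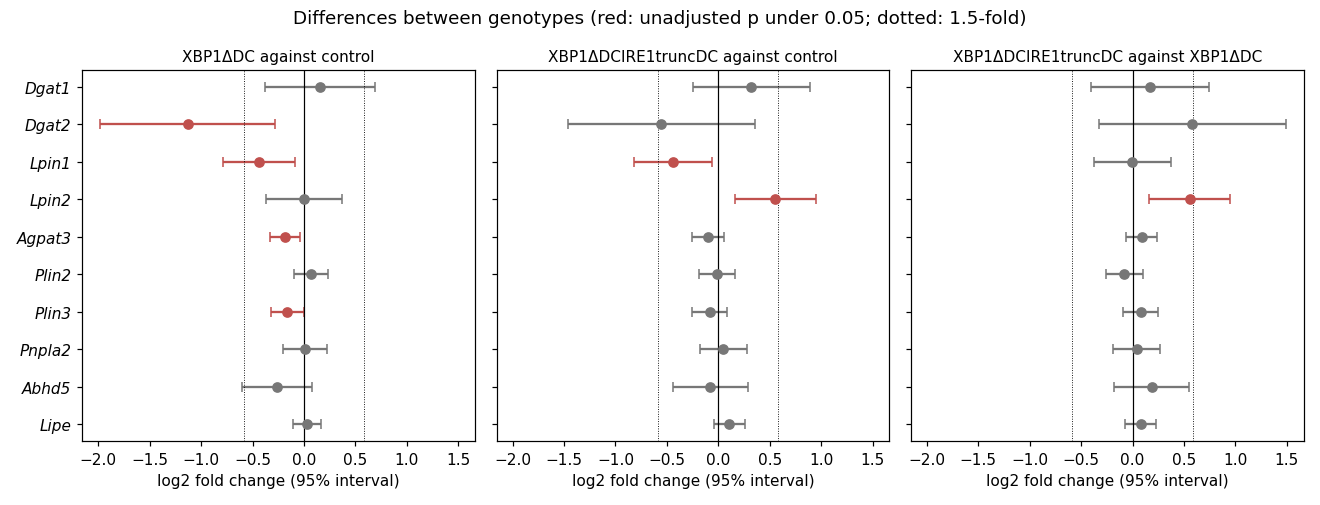
Log2 fold changes with 95% intervals of the 10 genes in the 3 comparisons, from edgeR's quasi-likelihood fit, with dotted lines at 1.5-fold and red for an unadjusted p under 0.05. Red marks 4 genes in XBP1ΔDC against control, 2 in XBP1ΔDCIRE1truncDC against control and 1 between the lines, and no gene passed adjustment.

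The intervals limit how large an unseen difference could be. They stayed within a 1.5-fold change in either direction for 6 of the 10 genes in XBP1ΔDC, for 6 in XBP1ΔDCIRE1truncDC and for 7 between the lines. *Agpat3*, *Plin2*, *Plin3*, *Pnpla2* and *Lipe* were among them in every comparison, and *Dgat1* and *Dgat2* in none.

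Other genes of lipid storage were described by lists, none of whose genes was called in any comparison. Their counts at an unadjusted p under 0.05 stand beside shares of all genes of 7.62% in XBP1ΔDC, 11.2% in XBP1ΔDCIRE1truncDC and 5.29% between the lines. Of 13 tested genes of the earlier synthesis steps, 0 had an unadjusted p under 0.05 in XBP1ΔDC and 2 had in XBP1ΔDCIRE1truncDC. These were *Acsl3*, which activates fatty acids at droplets (log2 fold change -0.72, 95% interval -1.30 to -0.14), and *Agpat1* (0.21, 0.04 to 0.38). Of 10 other droplet proteins, *Spg20* (spartin) had a lower value in XBP1ΔDC (-0.54, -1.03 to -0.06) and the droplet hydrolase *Ldah* in XBP1ΔDCIRE1truncDC (-0.22, -0.45 to -0.00056). Of 5 other lipases and lipase inhibitors, 0 reached an unadjusted p under 0.05 against control. Between the lines, *Agpat2* (0.50) and *Hsd17b11* (0.48) were higher and *Ldah* (-0.23) and the monoacylglycerol lipase gene *Mgll* (-1.45, at 0.466 to 3.56 CPM) lower in value in XBP1ΔDCIRE1truncDC.

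Uptake, regulation and use of fatty acids were examined next to storage. Of 9 tested uptake genes, *Scarb1*, the HDL receptor gene, had a lower value in both lines (log2 fold change -0.25, 95% interval -0.40 to -0.09, in XBP1ΔDC and -0.29, -0.46 to -0.13, in XBP1ΔDCIRE1truncDC), and *Fabp5*, a fatty acid binding protein gene, a higher value in XBP1ΔDC (0.68, 0.13 to 1.24). Both lines were set against the same controls. *Soat1*, which esterifies cholesterol for storage in droplets, was 1 of 2 sterol ester genes and had a value of -0.21 (-0.40 to -0.02) in XBP1ΔDC. The other, *Soat2*, went the other way, at 0.87 (-0.0055 to 1.75, edgeR, unadjusted p = 0.0512) in XBP1ΔDC. It was at 2.41 to 7.88 CPM in controls and 5.21 to 8.77 CPM in XBP1ΔDC. Of 7 regulators, *Srebf1*, a master regulator of lipid synthesis, had the smallest adjusted p, with a log2 fold change of -0.32 in XBP1ΔDC (95% interval -0.47 to -0.16, edgeR, Benjamini-Hochberg adjusted p = 0.0690). This interval lies within a 1.5-fold change. *Srebf1* was at 97.1 to 113 CPM in controls, 83.4 to 91.7 in XBP1ΔDC and 98.2 to 105 in XBP1ΔDCIRE1truncDC, so that its XBP1ΔDC pools lay below all others. *Ppargc1b* (0.81 in XBP1ΔDC) and *Pparg* (0.53 in XBP1ΔDCIRE1truncDC), a coactivator and a nuclear receptor of lipid metabolism, also had an unadjusted p under 0.05. Of 10 fatty acid oxidation genes, 0 reached it in any comparison. In XBP1ΔDC 7 of them were higher and 3 lower in value, with a median log2 fold change of 0.05. In XBP1ΔDCIRE1truncDC 9 were higher and 1 lower, with a median of 0.12. The medians over all genes were 0.0050 and -0.0031.

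The study's own list of triglyceride biosynthesis genes, a Gene Ontology set, held 25 tested genes. It contains *Dgat1*, *Dgat2*, *Lpin1* and *Lpin2*. The study tested this set by gene set enrichment analysis and reported no significant enrichment in either line. In XBP1ΔDC 6 of the 25 had an unadjusted p under 0.05 (against 7.62% of all genes), 5 with lower values (4.95% of all genes, *Srebf1*, *Scarb1*, *Lpgat1*, *Dgat2* and *Lpin1*) and 1 higher, *Pck2*, a mitochondrial enzyme that feeds glycerol synthesis (0.45). In XBP1ΔDCIRE1truncDC 6 of the 25 had (11.2% of all genes), 3 in each direction, led by *Pck2* (0.82, 95% interval 0.42 to 1.23) and *Scarb1*. No gene of this set was called, and its median log2 fold change was -0.06 in XBP1ΔDC and -0.0091 in XBP1ΔDCIRE1truncDC.

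**Figure D4:**
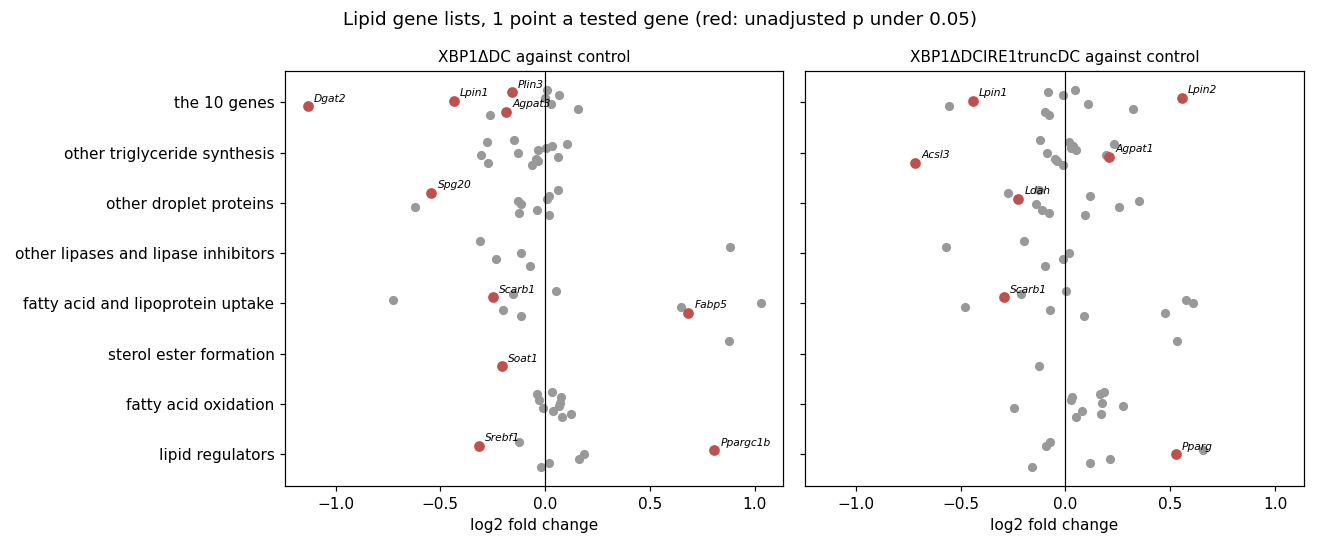
Log2 fold changes of all tested genes of the lipid lists in both lines against control, 1 point a gene, with names and red for an unadjusted p under 0.05. Fatty acid oxidation genes have no red point, with 9 above 0 and 1 below in XBP1ΔDCIRE1truncDC, while Dgat2 (-1.13) lies farthest to the left in XBP1ΔDC.

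The 10 genes did not move as a block between pools. Over the 11 pools, Pearson's r in log2 CPM between *Plin2* and the other 9 genes ran from -0.56 (*Abhd5*) to 0.13 (*Lpin2*). *Dgat2* and *Plin3* had an r of 0.79, and 0.61 after removal of the group means. The genes most like *Plin2* were *Tmub2* (0.92), *Ccdc17* (0.90), *Fam131a* (0.89), *Lrif1* (0.89) and *Tctn2* (0.84), picked as the 5 highest of 10951 genes, and the points share their pools and scaling factors.

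Markers of other cells were low but uneven. The sum of 5 fibroblast markers was 0.593 to 12.2 CPM in controls, 6.49 to 35.2 in XBP1ΔDC and 2.33 to 3.52 in XBP1ΔDCIRE1truncDC pools. The sum of 9 monocyte and macrophage markers was 27.5 to 43.0, 32.4 to 98.0 and 30.4 to 83.6 CPM, and *Lyz2*, a further marker that cDC1s may also express, was at 405 to 1132 CPM over all pools. The sum of 3 plasmacytoid dendritic cell markers was 17.1 to 23.0 CPM in controls. It was 9.24 to 15.4 in XBP1ΔDC and 2.89 to 12.5 in XBP1ΔDCIRE1truncDC, so every pool of both lines was below every control pool. Most of this sum was *Ccr9*, at 14.0 to 17.5 CPM in controls. *Siglech* was at 3.03 to 5.53 CPM in controls and overlapped with XBP1ΔDC, at 1.18 to 3.52 CPM. Every pool of both lines was also below every control pool for *Lpin1*, for *Scarb1* and for the sum of the 11 cDC1 markers. *Naaa*, 1 of these 11, weighed on that sum, at 3926 to 4356 CPM in controls. It was at 2705 to 3052 CPM in XBP1ΔDC and 3220 to 3415 in XBP1ΔDCIRE1truncDC. The 11 markers did not all go 1 way, with 7 lower and 4 higher in XBP1ΔDC. In XBP1ΔDCIRE1truncDC 6 were lower and 5 higher. Of all genes, 3.67% had every XBP1ΔDC pool below every control pool, and 5.81% had every XBP1ΔDCIRE1truncDC pool below. The sum of 5 cDC2 markers was 24.8 to 68.1 CPM over all pools, and sums of neutrophil, T, B and NK cell markers were at most 6.92 CPM. The part of these cells in the values of the 10 genes was not tested, other than by the melanoma covariate.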

How the data were processed

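RNA-seq of 11 pools of sorted tumor cDC1s was preamplified with SMART-seq v4 and read by single-end sequencing. Reads were trimmed by the authors with Trimmomatic 0.39, checked with FastQC 0.11.8, aligned to mm10 with STAR 2.7.3a and counted per gene with HTSeqCount, and the deposited table holds these raw counts. The tools' versions and the build are from the submitters' processing notes. The annotation and strand setting are not given in the sources used here. A second deposited table of log2 values normalized with limma was not used.

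Groups and replicate numbers were taken from the sample labels. The counts were modelled with edgeR 4.0.16 under R 4.3.3 (TMM scaling, genes above 1 CPM in at least 4 pools, 1 quasi-likelihood fit of the 3 genotypes). Adjustment for multiple tests followed Benjamini and Hochberg over the 10951 genes tested. Unadjusted p-values are counted beside them. Intervals are at the 95% level. Log2 CPM used a prior count of 2. No statement says that pools of a group are independent experiments, so p-values measure the spread between these pools. Amplified reads are not independent molecules, and floors cover counting error only. The script was tested on data simulated from these counts.

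Gene positions and exon lengths are from GENCODE vM21 on GRCm38, the assembly of mm10. Promoter sequences are from RefSeq (GRCm38.p6), matched by symbol for 8 of the 10 genes. *Dgat1* and *Dgat2* had no entry. Coding sequences are from GENCODE vM21, 1 transcript a gene, the longest coding one. Markers and lipid genes were grouped in lists, and the genes named from a list are those with an unadjusted p under 0.05, at most 4 with the smallest p for each list and comparison. Of the Gene Ontology set in XBP1ΔDC, the fifth and sixth (*Lpin1* and *Pck2*) are named beyond that rule, as is *Soat2* of the sterol ester genes. The 10 genes and the lists were chosen with earlier results of these data known. Alternatives covered the test (limma 3.58.1, DESeq2 1.42.0, edgeR's newer method), the scaling, the filter, the groups in the fit, a replicate block and leaving out each pool. Added after seeing the data were the removal of control replicates 1 and 2 together and a melanoma marker covariate. Figures were drawn with matplotlib 3.10.9 and tables made with python 3.11.15, pandas 2.3.3 and numpy 2.4.6.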

Additional observations from a re-analysis of the deposited data

Results flagged for a closer look

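*Pnpla2* in control replicate 1, at 119 CPM, lay far above the other 3 control pools at 94.3 to 97.3 CPM. The gap took 0.88 of the range of the group. It was the only such pool among 20 sets of 4 pools examined for the 10 genes, and chance flags about 1 set in 20.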

How the results depend on the processing

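Each of the 30 log2 fold changes of the 10 genes was computed under 22 other settings. Of the 660 values 623 had the same direction, 37 had the other sign and 0 passed adjustment, and the count of DEGs among the 10 genes was 0 under every setting. For XBP1ΔDC against control, the count of genes with an unadjusted p under 0.05 (4) was 2 with library size scaling, 1 with only controls 3 and 4, and 2 to 5 when 1 pool was left out (lowest without XBP1ΔDC replicate 1, highest without control replicate 4). For XBP1ΔDCIRE1truncDC against control, the count (2) was 1 with the replicate block, 0 with only controls 3 and 4, and 1 to 2 when 1 pool was left out (1 without control replicate 1 or XBP1ΔDCIRE1truncDC replicate 2). The cause of these moves was not tested.

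The largest log2 fold change to change sign was that of *Dgat2* in XBP1ΔDCIRE1truncDC, from -0.55 to 0.12 with only controls 3 and 4. *Lpin2* in XBP1ΔDC (-0.0013) was 0.019 with limma-voom, 0.0017 with DESeq2, 0.0015 with edgeR's newer method, 0.0018 with RLE scaling, 0.028 with library size scaling, 0.0089 with the replicate block and 0.023 with the melanoma covariate. *Lpin1* between the lines (-0.0050) was 0.00070 with DESeq2, 0.00074 with RLE scaling, 0.028 with the replicate block and 0.032 with the melanoma covariate. *Plin2* in XBP1ΔDCIRE1truncDC (-0.01) was 0.015 with the replicate block and 0.046 with the melanoma covariate, and *Plin3* between the lines (0.08) was -0.015 with that covariate. With only controls 3 and 4, *Plin2* in XBP1ΔDC was -0.024, and *Abhd5* in XBP1ΔDCIRE1truncDC was 0.11. With 1 pool left out, values in XBP1ΔDC ran from -0.017 to 0.36 for *Dgat1*, -0.096 to 0.16 for *Lpin2* and -0.027 to 0.094 for *Pnpla2*. In XBP1ΔDCIRE1truncDC they ran from -0.064 to 0.049 for *Plin2*, -0.023 to 0.13 for *Pnpla2* and -0.22 to 0.012 for *Abhd5*. Between the lines they ran from -0.061 to 0.37 for *Dgat1*, -0.15 to 0.18 for *Lpin1* and -0.031 to 0.12 for *Pnpla2*.

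The labels do not say whether same-numbered pools share a batch. Deviations of same-numbered pools from their group means correlated at 0.042 to 0.13 between control and XBP1ΔDC. In pairs with XBP1ΔDCIRE1truncDC they correlated at -0.26 to 0.027. Pools with different numbers correlated at -0.20 to 0.31, and 2 of 11 pools correlated best with their own number. With the replicate block, the counts of genes with an unadjusted p under 0.05 in the 3 comparisons were 3, 1 and 1. Over all genes, DEGs in XBP1ΔDCIRE1truncDC numbered 23, 11 with the block, 15 with the fit of 2 groups, 1 with only controls 3 and 4, 95 with DESeq2 and 12 to 23 with 1 pool left out. In XBP1ΔDC they numbered 54, and 22 with only controls 3 and 4. Between the lines they numbered 8, 3 with the block, 4 with the covariate or with only controls 3 and 4, 36 with DESeq2 and 4 to 10 with 1 pool left out. At 35 to 298 counts per pool *Dgat2* had the least depth of the 10 genes.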
